A study of Homo sapiens with 6 samples.

Results

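The aldo-keto reductases described here are 7 genes, AKR1A1, AKR1B1, AKR1B10, AKR1C1, AKR1C2, AKR1C3 and AKR7A2, taken by gene name from a table of 58735 genes. All 7 were found and all 7 passed the filter on low counts. RNA was measured in A549 cells, a human lung adenocarcinoma line, in 3 libraries titled Vector and 3 titled OE_GPX3. The labels give the genotype and treatment of the Vector libraries as WT and of the others as OE, and state no clone, promoter or time. GPX3 is a secreted glutathione peroxidase that reduces peroxides with glutathione.

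Aldo-keto reductases use NADPH to reduce aldehydes and ketones to alcohols, and act on sugars, lipid aldehydes, steroids, prostaglandins and drugs. Several of their genes, among them AKR1B10 and AKR1C1 to AKR1C3, are classic targets of the transcription factor NRF2, encoded by NFE2L2. A549 cells carry a mutation of KEAP1, the adaptor that sends NRF2 to degradation, and are known for constitutive NRF2 activity and high levels of these enzymes.

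The members lie in 4 places on hg38. AKR1C1 (ENSG00000187134) spans 4963253 to 4983283 of chromosome 10 on the plus strand, AKR1C2 (ENSG00000151632) spans 4987400 to 5018031 on the minus strand, and AKR1C3 (ENSG00000196139) spans 5035354 to 5107686 on the plus strand. AKR1B1 (ENSG00000085662, minus strand) spans 134442350 to 134459284 of chromosome 7. AKR1B10 (ENSG00000198074, plus strand) follows it at 134527592 to 134541408. On chromosome 1, AKR1A1 (ENSG00000117448, plus strand) spans 45550543 to 45570049 and AKR7A2 (ENSG00000053371, minus strand) spans 19303965 to 19312146.

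The AKR1C genes are near copies, which sets how well reads can be told apart. The coding sequences of AKR1C1 and AKR1C2, in GENCODE release 29 and without the stop codon, are 969 bases each and differ at 19 of them. The stretch shown here, coding bases 43 to 162, is the 120-base in-frame window with the most differences between AKR1C1 and AKR1C2, namely 10. It runs from coding exon 1 into coding exon 2, at 4963487 to 4963528 and 4965914 to 4965991 in AKR1C1, 5003752 to 5003793 and 5001604 to 5001681 in AKR1C2, and 5048854 to 5048895 and 5096410 to 5096487 in AKR1C3. Each sequence is written 5′ to 3′ on its gene's strand, and capitals mark the 19 positions at which the 3 genes are not all the same.
AKR1C1: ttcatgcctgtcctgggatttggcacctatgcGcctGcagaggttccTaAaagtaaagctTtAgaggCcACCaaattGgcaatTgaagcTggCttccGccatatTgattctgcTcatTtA
AKR1C2: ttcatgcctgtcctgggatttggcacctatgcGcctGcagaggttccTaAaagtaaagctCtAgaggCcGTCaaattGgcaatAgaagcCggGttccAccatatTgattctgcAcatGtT
AKR1C3: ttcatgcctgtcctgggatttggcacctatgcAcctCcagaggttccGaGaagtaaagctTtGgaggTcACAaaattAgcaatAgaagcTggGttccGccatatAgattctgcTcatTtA

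Outside that window the genes are harder to separate. The last 186 coding bases of AKR1C1 and AKR1C2, bases 784 to 969, are identical. Over the whole coding sequence AKR1C1 was 98.0% identical to AKR1C2 and 91.8% to AKR1C3, and AKR1C2 was 91.2% identical to AKR1C3. AKR1B10 was 93.5% identical to AKR1B15, its neighbour on chromosome 7, and 77.1% to AKR1B1.

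The share of coding words that occur in a transcript of another aldo-keto reductase gene or pseudogene was counted as a measure of reads that could be counted for either gene. Of the 50-base words, 54.3% of those of AKR1C1 and 57.1% of those of AKR1C2 were shared. The share was 28.5% for AKR1B10, 23.0% for AKR1C3, 10.2% for AKR7A2 and 7.23% for AKR1B1, and 0 of 926 words of AKR1A1 were shared. At 150 bases the shares fell to 4.63% for AKR1C1, 7.32% for AKR1C2 and 2.68% for AKR1C3. AKR1B10 shared 3.53% of its 100-base words and 0 of 799 words of 150 bases. Read length is not stated in the labels. How reads that match several genes were treated by the authors was not given in the sources used here. Hence the split of counts among AKR1C1, AKR1C2 and AKR1C3, and between AKR1B10 and AKR1B15, is uncertain, the latter, within the coding sequence, only for reads shorter than 150 bases.

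**Figure D1:**
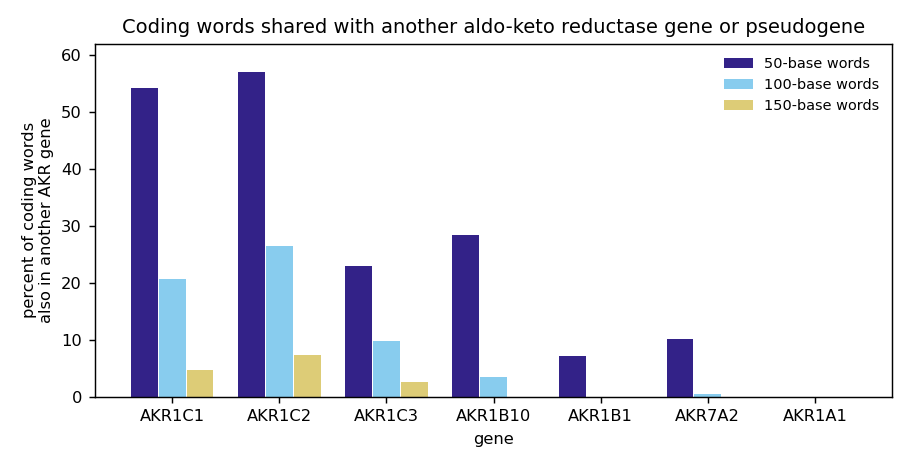
Percent of each gene's coding words of 50, 100 and 150 bases that also occur in a transcript of another aldo-keto reductase gene or pseudogene, on either strand. AKR1C1 and AKR1C2 have the tallest bars, at 54.3% and 57.1% of 50-base words, and AKR1A1 has none.

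The libraries held 15831693 to 18751815 counts. The targeted gene, GPX3, had 638, 658 and 648 counts with Vector and 23372, 17470 and 20984 with OE_GPX3, a log2 fold change of 5.08 ± 0.13 (SE). All 6 epithelial markers were expressed, with a summed level of 25681 to 27230 CPM (counts per 1000000 counts of a library) with Vector and 27531 to 35089 with OE_GPX3. Of the endothelial and fibroblast markers, 3 of 4 and 4 of 6 stayed under 10 counts in every library, and KDR, an endothelial receptor, was at 0. The part of the higher epithelial sum in the results below was not tested. Whether replicates were grown apart is not stated in the labels, so every p-value rests on a spread between libraries that may be technical.

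AKR1B10, which reduces retinal and lipid aldehydes, was the most abundant member in every library. Its FPKM, a level per gene length and a scaling constant of the library, were 2149, 2295 and 2313 with Vector and 2314, 2539 and 2452 with OE_GPX3. Every OE_GPX3 library lay above every Vector library, the closest pair nearly touching. As a share of all counts AKR1B10 overlapped between groups, at 0.390% to 0.420% with Vector and 0.409% to 0.423% with OE_GPX3. By mean FPKM it ranked 17 among all genes of the table. In each library its FPKM was 4.55 to 5.25 times that of AKR1C3, the next member.

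AKR1C1, AKR1C2 and AKR1C3 are hydroxysteroid dehydrogenases. AKR1C1 inactivates progesterone, AKR1C2 reduces dihydrotestosterone, and AKR1C3 makes testosterone from androstenedione and acts as a prostaglandin F synthase. AKR1C3 had 473, 475 and 460 FPKM with Vector and 468, 531 and 467 with OE_GPX3. AKR1C2 had 445, 452 and 466 FPKM with Vector and 490, 510 and 452 with OE_GPX3. In both genes OE_GPX3 replicate 2 was the highest library and the groups overlapped. The ranges of AKR1C3 and AKR1C2 also overlapped each other, at a ratio of 0.955 to 1.06 within a library, so their order in FPKM is not fixed by these data. AKR1C1 had 177, 141 and 180 FPKM with Vector and 209, 200 and 175 with OE_GPX3. Vector replicate 2 was its low library, and OE_GPX3 replicate 3 lay below 2 of the Vector libraries.

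AKR1B1 is aldose reductase, which turns glucose into sorbitol in the polyol pathway. It had 335, 309 and 364 FPKM with Vector and 346, 372 and 404 with OE_GPX3. Its highest and its lowest library belonged to different groups, but the groups overlapped through Vector replicate 3 and OE_GPX3 replicate 1.

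The other 2 members were lower by several-fold. AKR1A1 is aldehyde reductase, which reduces glucuronate and S-nitroso-coenzyme A. It had 32.9, 36.2 and 38.8 FPKM with Vector and 34.7, 45.0 and 41.3 with OE_GPX3. AKR7A2 reduces succinic semialdehyde and the dialdehyde form of aflatoxin, and had 24.9, 28.3 and 31.3 FPKM with Vector and 26.1, 35.3 and 32.3 with OE_GPX3. Both genes had their lowest level of each group in replicate 1. Their FPKM ranges overlapped across libraries, yet within every library AKR1A1 was 1.24 to 1.33 times AKR7A2.

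**Figure D2:**
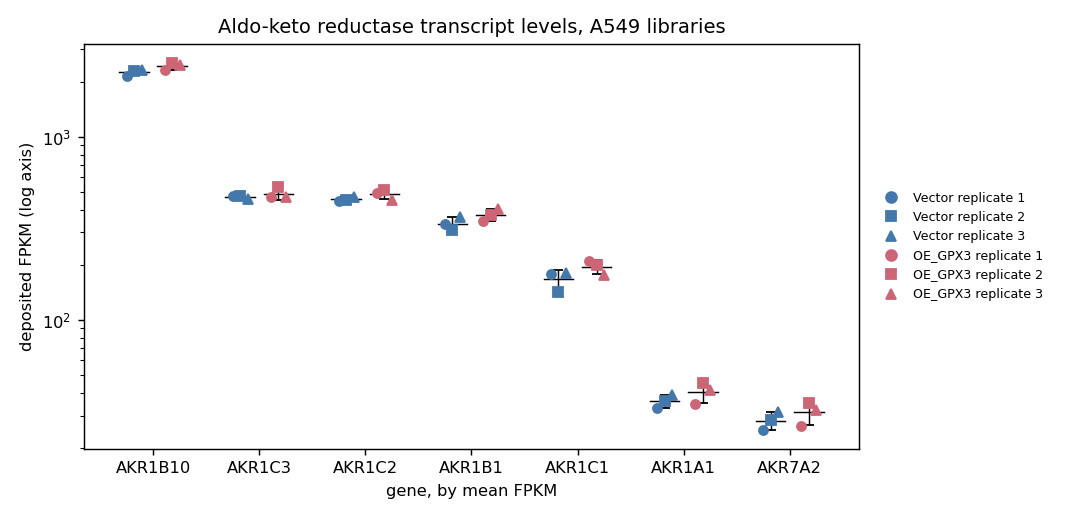
Deposited FPKM (log axis) of the 7 genes in each library, Vector in blue and OE_GPX3 in red, with the marker shape giving the replicate, and bars for the group mean and SD. AKR1B10 lies at or above 2149 FPKM in every library and AKR1A1 and AKR7A2 lie at or below 45.0 FPKM.

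The order by level depended on the length used. The length in the deposited table is 8765 bases for AKR1C1, 9.05 times its coding sequence, and 1744 bases for AKR1B10, 1.84 times its coding sequence. By deposited FPKM the order was AKR1B10, AKR1C3, AKR1C2, AKR1B1, AKR1C1, AKR1A1 and AKR7A2. Per kilobase of coding sequence, a scale added after the data were seen, it was AKR1B10, AKR1C2, AKR1C3, AKR1C1, AKR1B1, AKR1A1 and AKR7A2. AKR1B10 led and AKR1A1 and AKR7A2 closed the order on both scales.

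Together the 7 genes took 1.22% ± 0.00601 of all counts with Vector and 1.26% ± 0.0383 with OE_GPX3 (SD, n = 3 each). The difference was 0.0359 percentage points, and OE_GPX3 replicate 3, at 1.21%, lay below every Vector library. That position depended on the measure. As a share of counts per gene length, OE_GPX3 replicate 3, at 1.167%, lay just above the highest Vector library, at 1.166%. Of the family's counts 33.1% belonged to AKR1B10, 24.6% to AKR1C2, 17.6% to AKR1C3, 12.8% to AKR1C1 and 10.5% to AKR1B1, as means of the 6 libraries. AKR1A1 gave 0.963% and AKR7A2 0.428%.

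None of the 7 genes passed the test of OE_GPX3 against Vector. That test was the quasi-likelihood test of edgeR, with p-values adjusted by Benjamini-Hochberg, at an adjusted p under 0.05 over the 14458 genes tested, of which 38 passed, or 0.263%. At that rate a count of 0 of 7 says little about the family. At an unadjusted p under 0.05 the count was also 0 of 7, beside 14.6% of all genes, and DESeq2 called 0 of 7 too. All 7 log2 fold changes were above 0, with a median of 0.13, against 47.4% of all genes above 0 and a median of -0.02. The direction was not the same in every setting: AKR1C3 lay at -0.02 with total counts alone as the scaling, and AKR7A2 at -0.01 with a correction for GC content. The genes of a library share its scaling, so the 7 signs are not independent.

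Levels for this comparison are CPM scaled between libraries by TMM. AKR1C1 had the largest difference, 1475 ± 191 against 1706 ± 164 CPM (SD, n = 3 each), which gave a log2 difference of 0.21 ± 0.11 (SE) with an edgeR adjusted p of 0.372. Its 95% confidence interval ran from -0.01 to 0.43, so a change larger than 1.35-fold upward lay outside it. Leaving out 1 library at a time gave 0.11 to 0.30. Without Vector replicate 2 AKR1C1 lay at 0.11, below AKR1A1 at 0.16 and AKR7A2 at 0.14. Without OE_GPX3 replicate 1 it lay at 0.15, below AKR1A1 and AKR7A2 at 0.25 each and AKR1B1 at 0.19. The place of AKR1C1 as the member with the largest difference rested on those libraries. AKR1C3 had the smallest difference, a log2 fold change of 0.04 whose interval ran from -0.17 to 0.25. AKR1C2 lay at 0.08, with an interval from -0.13 to 0.29. The intervals of AKR1C1 and AKR1C3 overlapped from -0.01 to 0.25.

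AKR1B10 rested on the most counts of the members. It had 3973 ± 139 CPM with Vector and 4249 ± 176 CPM with OE_GPX3 (SD, n = 3 each). Its log2 fold change was 0.10 ± 0.10 (SE), with an interval from -0.11 to 0.31 and an edgeR adjusted p of 0.680. It was the only member whose groups did not overlap in CPM. Among all genes tested, 18.5% had groups that did not overlap, and 8.62% did so with OE_GPX3 higher.

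The remaining members gave similar sizes. AKR1A1 had 113 ± 8.74 CPM with Vector and 126 ± 15.8 CPM with OE_GPX3 (SD, n = 3 each), which gave a log2 difference of 0.15 with an interval from -0.07 to 0.37. AKR1B1 lay at 0.14, with an interval from -0.07 to 0.35. AKR7A2 lay at 0.13, with an interval from -0.11 to 0.38. The upper ends of the 7 intervals lay between 1.19-fold in AKR1C3 and 1.35-fold in AKR1C1, and the lower ends between 0.891-fold in AKR1C3 and 0.991-fold in AKR1C1. RNA was taken from whole cultures, so a change in the cells with a transcript and in its level per cell cannot be told apart.

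**Figure D3:**
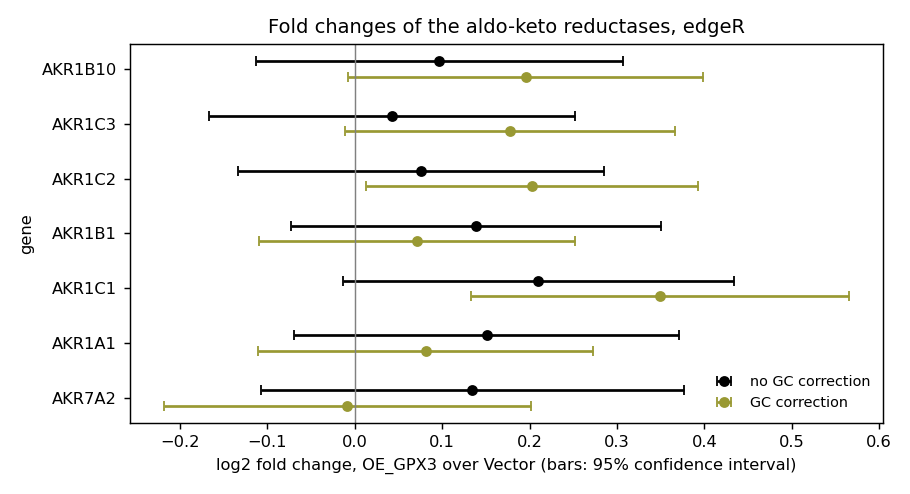
Log2 fold change of OE_GPX3 over Vector for each gene from edgeR, with 95% confidence intervals, without (black) and with (olive) a correction for the GC content of genes. Without it all 7 intervals include 0. With it AKR7A2 moves to -0.01. The intervals of AKR1C1, 0.13 to 0.57, and AKR1C2, 0.01 to 0.39, then lie above 0, at edgeR adjusted p of 0.307 and 0.504. With the correction 1352 of 14458 genes had an unadjusted edgeR p under 0.05.

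GC content moved with the result. Over all genes tested, the median log2 fold change was -0.16 in the third of genes lowest in GC, -0.02 in the middle and 0.14 in the highest. AKR1C1, AKR1C2 and AKR1C3 have 43.0%, 44.0% and 43.8% GC and AKR1B10 45.9%, below the median of 49.8%, while AKR1A1 has 55.2%, AKR1B1 55.0% and AKR7A2 61.5%. With a smooth GC trend taken out of each library, AKR1C1 had a log2 fold change of 0.35 with an edgeR adjusted p of 0.307. AKR1C2, AKR1B10 and AKR1C3 then lay at 0.20, 0.20 and 0.18, above AKR1A1 at 0.08, AKR1B1 at 0.07 and AKR7A2 at -0.01. The call stayed at 0 of 7, and the order of the members by fold change was not the same with and without the correction.

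Ratios between members within a library do not depend on the scaling between libraries. Of the 21 pairs, 0 had groups of log2 FPKM ratios that did not overlap. The largest shift was 0.17, in AKR1C1 over AKR1C3, for which a two-sided exact permutation test gave p = 0.5 and an adjusted p of 0.865. The smallest p over the 21 pairs was 0.4, and 3 libraries against 3 cannot give less than 0.1. Without OE_GPX3 replicate 1, 4 pairs no longer overlapped, and without Vector replicate 3 or OE_GPX3 replicate 3 it was 1 pair each. Groups part more easily with a library fewer: without OE_GPX3 replicate 1 the CPM of 38.2% of all genes tested did not overlap between groups. Without Vector replicate 3 that share was 35.6%, and without OE_GPX3 replicate 3 it was 25.2%.

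Libraries of 1 group also differed from each other. In OE_GPX3 replicate 2 all 7 members lay above their own 6-library mean of log2 CPM, by 0.15 on average. In Vector replicate 2 all 7 lay below it, AKR1C1 by most, at -0.33. The other 4 libraries had members on both sides. These sides depend on the scaling: the TMM factor was highest in Vector replicate 2, at 1.04, and lowest in OE_GPX3 replicate 2, at 0.958. As a share of all counts, AKR1B10 in Vector replicate 2, at 0.420%, lay above every library but OE_GPX3 replicate 2, at 0.423%. The share of all genes above or below their mean in these libraries was not counted. AKR1B10 was among the steadiest genes, with a within-group SD of 0.06 on the log2 scale. Of the 3744 genes of at least 50 CPM, whose median SD was 0.12, 6.01% had a smaller one. For AKR1C2, with 0.07, and AKR1C3, with 0.08, that share was 10.8% and 15.3%. AKR7A2 with 0.19 and AKR1C1 with 0.17 varied more than most of those genes. The genes compared were not matched to the members in level.

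**Figure D4:**
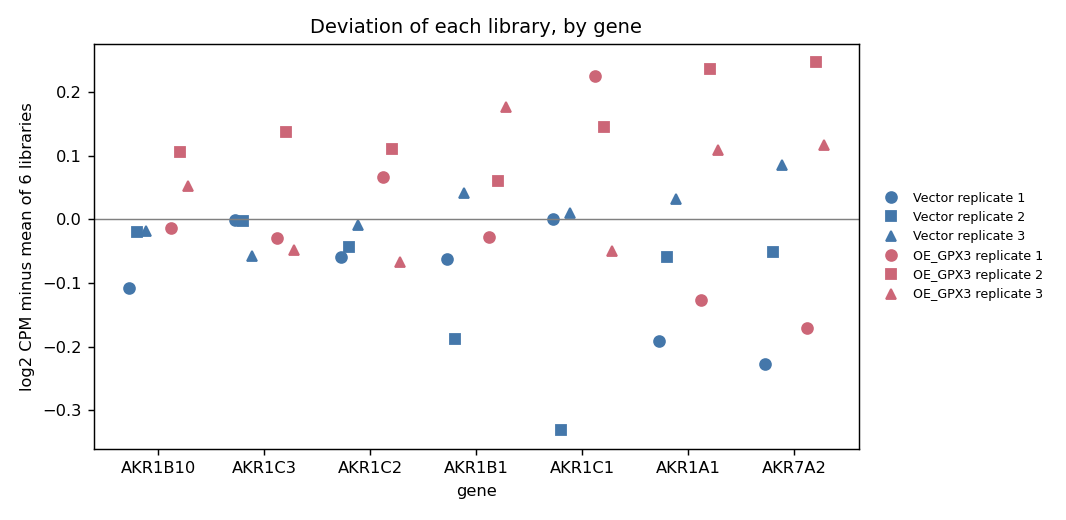
Log2 CPM of each library minus the mean of the 6 libraries, for each gene, Vector in blue and OE_GPX3 in red, with the marker shape giving the replicate. OE_GPX3 replicate 2 lies above 0 for all 7 genes, and Vector replicate 2 lies lowest for AKR1C1, at -0.33.

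AKR1A1 and AKR7A2 followed the same pattern over the 6 libraries, with a Pearson r of 0.988 in log2 CPM. This is a description of 6 libraries that share their scaling. AKR1B10 followed AKR1A1 at 0.935 and AKR7A2 at 0.887. AKR1C1 followed AKR1C2 at 0.696 and AKR1A1 at 0.134. Among 8394 protein-coding genes of at least 10 CPM, those most like AKR1B10 over the 6 libraries were TIMM22, GATD3A and COG4, with r of 0.996, 0.994 and 0.993. For AKR1C3 they were RPL23A, NDUFA12 and NDUFAF7, with r of 0.992, 0.986 and 0.981. For AKR1A1 they were MCAT, EEF1D and IDH3B, with r of 0.995, 0.995 and 0.994. Each is among the highest values of a search over 8394 genes in 6 libraries. Such a search yields high r by selection, so these values are no evidence of a link.

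Genes that overlap the members took few counts. The antisense gene AL391427.1 and a small nucleolar RNA lie opposite AKR1C2, with 0.0556% and 0.0253% of its count. The snRNA gene RNU6-1099P within AKR7A2 had 0.0364% of its count. Use of strand in counting was not given in the sources used here. Therefore reads of AKR1C2 and its antisense partner may have been mixed.

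Of 10 other genes of the superfamily, 4 passed the filter and 0 were called. AKR1B15, the near copy of AKR1B10, had 23.6 ± 1.35 CPM with Vector and 26.7 ± 2.07 CPM with OE_GPX3 (SD, n = 3 each), with a log2 fold change of 0.17. KCNAB2, a potassium channel beta subunit of the same fold, lay at 0.21 and AKR1E2 at 0.08. AKR1C4, the liver member of the AKR1C group, had 2.65 ± 0.567 CPM with Vector and 1.66 ± 0.976 CPM with OE_GPX3 (SD, n = 3 each), and a log2 fold change of -0.67. AKR1D1, AKR7A3, AKR7L, AKR1C8P, KCNAB1 and KCNAB3 were below the filter.

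Lists of enzymes with linked reactions are given as counts beside the share of all genes called, 0.263%, and above 0, 47.4%. At that share of calls, a count of 0 in a list of this size says little about the list. Among 24 carbonyl reductases of the short-chain and medium-chain families 0 passed, with 18 log2 fold changes above 0 and a median of 0.14. DCXR, which reduces xylulose, lay at 0.31, CBR3 at 0.50, DHRS11 at 0.26 and CBR4, a mitochondrial carbonyl reductase, at -0.43. DCXR passed under 2 of 18 alternatives, among them without OE_GPX3 replicate 1 (edgeR adjusted p of 0.0300), and lay at 0.14 with the GC correction, over a range of adjusted p from 0.0300 to 0.684. Of 15 genes of the aldehyde dehydrogenase family tested, 0 passed, with 10 above 0 and a median of 0.10. ALDH16A1 lay at 0.30, ALDH5A1 at 0.29, ALDH4A1 at 0.26 and ALDH1L2 at -0.53. In the glyoxalase and sorbitol pathway, which handles methylglyoxal and the product of AKR1B1, 0 of 6 genes passed, with 5 above 0 and a median of 0.15. KHK, which phosphorylates fructose, lay at 0.31, HAGHL at 0.28, HAGH at 0.18 and GLOD4 at 0.12.

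Of 21 tested genes of steroid and prostaglandin metabolism, 1 passed, and it fell. PTGS2, the inducible cyclooxygenase that makes the prostaglandin precursor, had 56.0, 66.3 and 49.1 CPM with Vector and 43.0, 35.1 and 38.3 CPM with OE_GPX3. Every OE_GPX3 library lay below every Vector library, and 18.5% of all genes tested had groups that did not overlap. The log2 fold change was -0.56 ± 0.12 (SE), with an edgeR adjusted p of 0.0273, beside 0.166% of all genes called lower. PTGS2 has 39.4% GC, and with the GC correction the value was -0.36 and the edgeR adjusted p 0.330. The call was also lost without Vector replicate 2 (edgeR adjusted p of 0.619), OE_GPX3 replicate 2 (0.127) or OE_GPX3 replicate 3 (0.177). HPGD, which inactivates prostaglandins, lay at -0.27, PTGES2 at 0.27 and HSD17B10 at 0.25. The median of the 21 genes was 0.02.

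Of 35 NRF2 regulators and reference targets 0 passed, with 16 above 0 and a median of -0.03. NFE2L2 had 31.8, 34.7 and 31.8 CPM with Vector and 22.2, 25.2 and 21.2 CPM with OE_GPX3. Its groups did not overlap, as in 18.5% of all genes tested. Its log2 fold change was -0.52 ± 0.12 (SE), with an edgeR adjusted p of 0.0517. It passed under 7 of 18 alternatives, with adjusted p from 0.0180 to 0.619 over all of them. SLC7A11, the cystine transporter, lay at -0.43 (edgeR adjusted p of 0.0691) and passed under 5 of 18. TXNRD1, thioredoxin reductase, lay at -0.25 and SRXN1, sulfiredoxin, at 0.28. NFE2L2, SLC7A11 and TXNRD1 have 43.4%, 35.9% and 45.1% GC. With the GC correction these 3 lay at -0.38, -0.21 and -0.14, with edgeR adjusted p of 0.262, 0.457 and 0.647. KEAP1 lay at 0.11 and NQO1, a quinone reductase, at -0.03, with directions that turned under the GC correction, to -0.04 and 0.05.

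**Figure D5:**
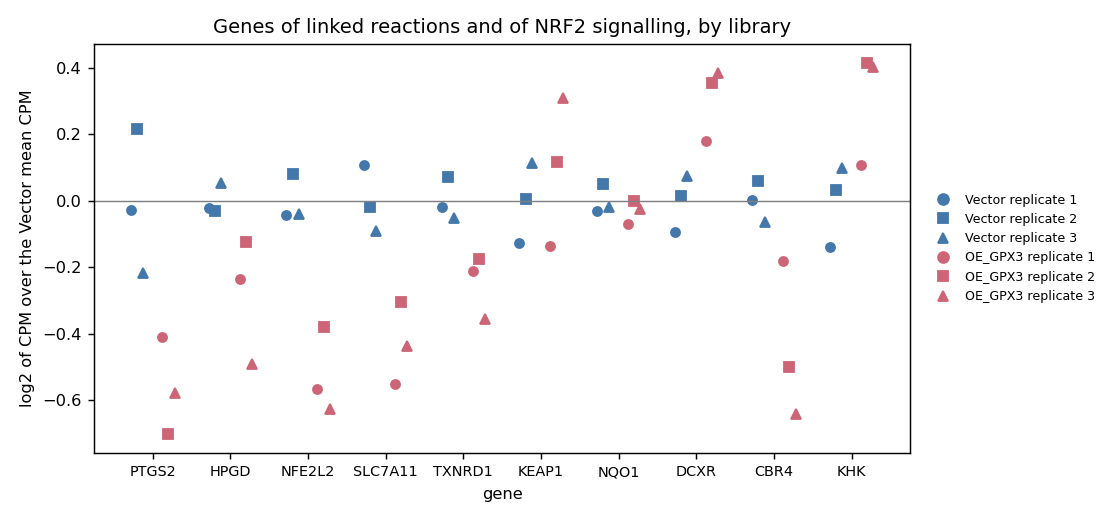
Log2 of CPM over the mean CPM of the Vector libraries, for 10 genes of linked reactions and of NRF2 signalling, Vector in blue and OE_GPX3 in red, with the marker shape giving the replicate. All OE_GPX3 libraries lie below all Vector libraries for PTGS2, HPGD, NFE2L2, SLC7A11, TXNRD1 and CBR4, and above them for DCXR and KHK. The groups overlap for KEAP1 and NQO1. Groups did not overlap in 18.5% of all genes tested. Apart from NFE2L2, KEAP1 and NQO1, which are always named, the genes shown were drawn from those with the smallest p of their lists. That choice favours groups that do not overlap, so their number is not comparable with the 18.5%.

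The antioxidant response element bound by NRF2 has the core TGACNNNGC, and it was searched on both strands in RefSeq windows (GRCh38.p14) from 250 bases before to 50 after each gene start. Of 35116 windows 4687, or 13.3%, held it. Windows were found for 6 of the 7 members, and AKR7A2 alone of these held a match. AKR1B10 had no window and was not searched. The stretch of the AKR7A2 window with all 3 matches is shown, at chr1:19312227-19312319 on the minus strand. It runs from -173 to -81 relative to the start and lies outside the annotated exons of AKR7A2. The matches are in capitals, 2 on the strand of the gene and 1 on the other.
AKR7A2: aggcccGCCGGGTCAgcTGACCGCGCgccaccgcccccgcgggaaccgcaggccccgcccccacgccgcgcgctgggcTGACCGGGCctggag

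A match is a description of letters and not of binding, and elements farther from the start were not searched. The windows of AKR1C1 and AKR1C2 share an identical run of 245 bases before their starts, part of which lies in an annotated first exon.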

How the data were processed

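RNA-seq libraries of 3 Vector and 3 OE_GPX3 samples of A549 cells were grouped by title. The authors deposited whole-number counts per gene with no scaling apparent in the values, and FPKM. The deposited FPKM equal the count per gene length and 1 constant per library, which differs from the total by -4.52% to 4.90%. The genome build is hg38 per the submitters' processing notes. Aligner, counting tool and strand setting were not given in the sources used here. Per the labels' protocols, the library was one enriched for small RNA, whereas 97.2% to 97.6% of the deposited counts fell on protein-coding genes, so the library type behind the levels is uncertain.

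Counts were filtered with filterByExpr (minimum count 10, minimum total 15), scaled by TMM and tested with edgeR 4.0.16 in R 4.3.3 (robust quasi-likelihood test, two-sided) with p-values adjusted by Benjamini-Hochberg over 14458 genes. DESeq2 1.42.0, limma 3.58.1 on log2(FPKM + pseudocount 1 or 0.1), other scalings and filters, a GC correction (span 0.3) and omitted libraries were alternatives. Coding sequences came from GENCODE release 29. No other sample's column was present. The result of 1 marker list is not reported here.

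The members and gene lists were chosen with earlier results of these data known. Genes named are the members, GPX3, NFE2L2, KEAP1 and NQO1, in each list every called gene and up to 4 with the smallest p, the 3 genes most correlated with AKR1B10, AKR1C3 and AKR1A1, and overlapping genes. The depth of 15831693 to 18751815 counts a library gives at least 799 counts for each member, so the spread between libraries, not counting error, limits the precision.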

Additional observations from a re-analysis of the deposited data

How the results depend on the processing

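The count of members called was 0 of 7 in edgeR and in all 18 alternatives, with at most 2 members at an unadjusted p under 0.05. Those 2 came with the GC correction, with the replicate block and GC correction, and without OE_GPX3 replicate 1. Over all genes, 1352 of 14458, 1717 of 14458 and 3056 of 14707 had such a p in these settings of edgeR. Of the 126 alternative fold changes of the members 122 kept their direction, and the smallest adjusted p was 0.158. The 4 that turned were AKR1C3 with total counts alone (-0.0188) and without OE_GPX3 replicate 2 (-0.0088, within a range of -0.0088 to 0.0895 over the omitted libraries), and AKR7A2 with the GC correction (-0.0085) and with the replicate block and GC correction (-0.013). KEAP1 turned to -0.0381 and NQO1 to 0.0455 with the GC correction, and to -0.0421 and 0.0444 with the replicate block added. The causes were not tested.

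Over all genes, 38 calls (14 higher, 24 lower) became 116 with DESeq2 (68 higher, 48 lower), 52 with upper-quartile scaling (14 higher, 38 lower) and 68 with total counts alone (13 higher, 55 lower), which moved the median log2 fold change to -0.08. They became 129 without a filter, 4 with the GC correction and 4, 4 and 1 with limma on FPKM. Leaving out a library gave 1 to 657 calls, the most without OE_GPX3 replicate 1 and the fewest without OE_GPX3 replicate 2. The calls were 116 without Vector replicate 1, 4 without Vector replicate 2 and 12 without OE_GPX3 replicate 3. Pairs of members whose log2 ratios did not overlap numbered 0 to 4 with a library left out.

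Deviations of log2 CPM from the group mean correlated at 0.192, 0.0104 and 0.114 between same-numbered libraries of the groups. Between libraries of different numbers the correlations ran from -0.151 to 0.0493. The labels do not say whether replicate numbers pair libraries, and these values do not settle it. With the replicate block 231 genes and 0 members were called, and DCXR passed (edgeR adjusted p of 0.0472). PTGS2 was called in 10 of 18 alternatives. The difference in the family's share of counts lay between 0.0225 and 0.0578 percentage points in all settings.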
